A study of Mus musculus with 8 samples.

Results

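The pre-B cell receptor is the first antigen receptor that a B cell precursor assembles, and 8 genes for its parts and close partners were followed here: Cd79a, Cd79b, Vpreb1, Vpreb2, Vpreb3, Igll1, Blnk and Cd72. They were taken as a list of symbols, and all 8 were found among the 39179 Ensembl gene IDs of each library. The study compared common lymphoid progenitors (CLPs) from the bone marrow of C57BL/6 mice, which can still form B, T and other lymphoid cells. The 4 ex vivo CLP libraries came from freshly isolated cells. The 4 cCLP libraries came from cells cultured for 2 months on OP9, a mouse bone marrow stromal line, with Flt3 ligand and little IL-7. Both kinds of cell were sorted as lineage-negative, Flk2+, IL7R+, CD27+ and Ly6d-. No genetic change is named for either group, and no label gives the age of the mice, the number of animals or the number of cultures, so p-values measure only the spread between these libraries, which may be technical.

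As background, the receptor pairs an immunoglobulin mu heavy chain with a surrogate light chain, which is built from a VpreB protein (Vpreb1 or its close copy Vpreb2) and lambda-5 (Igll1). The pair carries no signal into the cell by itself: the heterodimer of Ig-alpha (Cd79a) and Ig-beta (Cd79b) does so through phosphorylated tyrosine motifs that recruit the kinase Syk. Syk then phosphorylates the adaptor BLNK (SLP-65), which gathers Btk and phospholipase C gamma 2, while the lectin-like coreceptor CD72 restrains B cell receptor signals by recruiting the phosphatase SHP-1 (Ptpn6). In mouse B lymphopoiesis these genes are switched on by EBF1, E2A (Tcf3) and PAX5, mostly after the Ly6d- CLP stage.

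The libraries did not sort by their labels. Across all genes, the library labelled ex vivo CLP 2 had Spearman's rho of 0.973 to 0.979 with cCLP 2 to 4 and of 0.913 to 0.927 with the other ex vivo libraries. The library labelled cCLP 1 had rho of 0.970 to 0.974 with ex vivo CLP 1, 3 and 4 and of 0.924 to 0.925 with the other cCLP libraries. Every comparison is therefore given both with all 8 libraries as labelled and without these 2, and no library was moved to the other group. The 6 that remain are called the retained ex vivo libraries (1, 3 and 4) and the retained cCLP libraries (2, 3 and 4), and their values are listed in that order. Because whole profiles guided which libraries were set aside, p-values over the 6 are conditional on this selection. The deposited values were whole numbers on an unnamed scale with less spread between replicates than counting error allows, so the depth is unknown, and no more is said of a gene at 0 than that it is listed so. Scaled values below are listed values divided by a library factor. The gate genes Flt3 and Cd27 were listed at 171 to 333 and at 56 to 113 in the 8 libraries. Il7r, the gene of the remaining named receptor in the gate, did split: it had 61, 14 and 24 in the retained ex vivo libraries and 28 in cCLP 1, against 213, 204 and 256 in the retained cCLP libraries and 193 in ex vivo CLP 2. Ly6d, whose protein was sorted against, had values of 22 to 41 in the retained ex vivo libraries and cCLP 1 but of 0 or 1 elsewhere. The common lymphoid progenitor list held Flt3, Il7r, Cd27, Dntt, Rag1, Kit and Ly6a. Its scaled values summed to 1231 to 2768 in the retained ex vivo and 966 to 1083 in the retained cCLP libraries. Kit was listed at 25, 19 and 47 against 10, 11 and 11. Ly6a was listed at 26, 25 and 36 against 0, 1 and 0. Dntt was also lower in the retained cCLP libraries, while Il7r and Rag1 were higher.

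Cd79a and Cd72 were listed higher, and Cd79b and Blnk lower, in the retained cCLP libraries than in the retained ex vivo libraries, and the surrogate light chain genes were near 0 in every library. For genes that went opposite ways, the 250 bases before the RefSeq start site (GRCm38.p6, on the strand of the gene) are printed. These are Cd79a (chr7:24897247-24897496, plus strand) and Cd72 (chr4:43454627-43454876, minus strand), which were higher in the retained cCLP libraries. Blnk (chr19:40994222-40994471, minus strand) was lower. The gene starts of RefSeq and GENCODE differ. The Blnk window lies inside the GENCODE gene (40928927 to 40994535), as does part of the Cd79a window (gene from 24897381). The Cd72 window enters its GENCODE gene only at its last bases. Capitals mark matches, on either strand, to the E-box CAGNTG bound by E proteins, the octamer ATGCAAAT bound by Oct factors or the EBF1 core CCCNNGGG.
Cd79a: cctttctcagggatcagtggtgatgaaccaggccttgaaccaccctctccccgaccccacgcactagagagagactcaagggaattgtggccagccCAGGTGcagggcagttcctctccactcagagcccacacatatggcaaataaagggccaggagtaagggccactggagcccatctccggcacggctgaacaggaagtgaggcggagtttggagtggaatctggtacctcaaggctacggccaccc
Cd72: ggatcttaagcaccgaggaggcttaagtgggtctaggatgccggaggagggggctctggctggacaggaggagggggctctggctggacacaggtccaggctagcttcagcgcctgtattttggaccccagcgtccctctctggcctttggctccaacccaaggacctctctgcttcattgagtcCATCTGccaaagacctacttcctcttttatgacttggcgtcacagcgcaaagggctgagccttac
Blnk: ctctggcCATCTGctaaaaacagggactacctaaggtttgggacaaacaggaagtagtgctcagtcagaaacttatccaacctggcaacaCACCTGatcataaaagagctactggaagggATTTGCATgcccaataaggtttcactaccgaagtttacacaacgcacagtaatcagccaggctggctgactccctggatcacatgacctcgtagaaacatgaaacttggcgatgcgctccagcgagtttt

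The Cd79a window held 1 E-box match, 154 bases before the start site, and the Cd72 window held 1, 65 bases before it. The Blnk window held 2 E-box matches, 243 and 160 bases before the start, and 1 octamer match, 130 bases before it. None of these 3 windows held an exact match to the EBF1 core as spelled here. Sites that depart from this spelling were not searched for, so no window is shown to lack an EBF1 site. Of 32851 windows of this length, 44.8% held the E-box, 1.60% the octamer and 11.8% the EBF1 core. Among the remaining genes with a window, the octamer also lay 45 bases before the start of Vpreb3 and the EBF1 core 231 bases before that of Igll1. The E-box lay in each of their windows too, with 1 match for Vpreb1, 2 for Vpreb2, 1 for Vpreb3 and 3 for Igll1. A match is a run of letters, not a bound site, and these data hold no binding measurement.

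The signalling chains Cd79a and Cd79b, whose products form a single heterodimer, went opposite ways. Cd79b (ENSMUSG00000040592, chromosome 11, 106311341 to 106314762, GRCm38) was listed at 32, 30 and 43 in the retained ex vivo libraries and at 1, 2 and 4 in the retained cCLP libraries. The library labelled ex vivo CLP 2 had 7 and the library labelled cCLP 1 had 35. The libraries thus split as the whole profiles do, and the retained groups did not overlap. In bulk RNA, fewer cells that express a gene and less RNA per cell cannot be told apart. Over the 6 libraries Cd79b fell: its scaled mean was 35.9 ± 4.36 (SD, n = 3) in the retained ex vivo and 2.11 ± 1.16 in the retained cCLP libraries, and limma gave a log2 fold change of -3.63 ± 0.26 (SE; 95% interval -4.22 to -3.04; adjusted p = 2.24e-05). Cd79b was below a scaled value of 10 in each of the retained cCLP libraries, so it passed the filter on low values through the ex vivo libraries and could only fall. Over all 8 libraries as labelled the means were 28.9 ± 14.5 (SD, n = 4) and 9.89 ± 15.6, and the log2 fold change was -2.23 ± 0.90 (adjusted p = 0.482).

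Cd79a (ENSMUSG00000003379, chromosome 7, 24897381 to 24902197) was listed at 1 in every retained ex vivo library and at 7, 7 and 16 in the retained cCLP libraries, with 0 in cCLP 1. Its highest value, 27, was in the library labelled ex vivo CLP 2. The range of Cd79a among the libraries with signal was therefore wide, and ex vivo CLP 2 stood above all retained cCLP libraries. Cd79a was too low to be tested in either comparison. In a fit without the filter its scaled means were 1.07 ± 0.30 (SD, n = 3) and 9.18 ± 3.68 over the 6 libraries, so that the log2 fold change was 2.25 ± 0.26 (SE; adjusted p = 0.00038). Over the 8 libraries it was 0.45 ± 1.13 (adjusted p = 0.840), while the scaled means ran the other way, 8.37 ± 14.6 (SD, n = 4) in ex vivo CLP and 6.89 ± 5.49 in cCLP, with the 27 of ex vivo CLP 2 in the first. Ebf1, which encodes the B lineage factor known to activate Cd79a, had listed values of 1, 0 and 0 in the retained ex vivo libraries against 7, 6 and 9 in the retained cCLP libraries, with 1 in cCLP 1 and 8 in ex vivo CLP 2. Pax5, which encodes a later B lineage factor, was at 0 throughout the retained ex vivo libraries and cCLP 1, with 1, 1 and 2 in the retained cCLP libraries and 2 in ex vivo CLP 2. Both Ebf1 and Pax5 were too low to be tested, and only steps of 1 or 2 separate the libraries for Pax5.

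The ratio of Cd79b to Cd79a was taken within each library, from listed values. On the log2 scale, with 1 added to each listed value, the ratio was 4.04, 3.95 and 4.46 in the retained ex vivo libraries and 5.17 in cCLP 1. It was -1.81 in ex vivo CLP 2 and -2.0, -1.42 and -1.77 in the retained cCLP libraries. The libraries thus fell into 4 with a high and 4 with a low ratio, with none between. The added 1 weighs on this ratio, since Cd79a was at 0 or 1 in 4 libraries: with 5 added instead, the 8-library difference moved from -2.67 to -1.69. The mean ratio went from 4.15 ± 0.27 (SD, n = 3) to -1.73 ± 0.29 over the 6 libraries, a difference of -5.88 with exact two-sided permutation p = 0.1, the smallest that 3 against 3 allow. Over the 8 libraries the means were 2.66 ± 2.99 (SD, n = 4) and -0.003 ± 3.46, and the exact two-sided permutation p was 0.457.

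**Figure D1:**
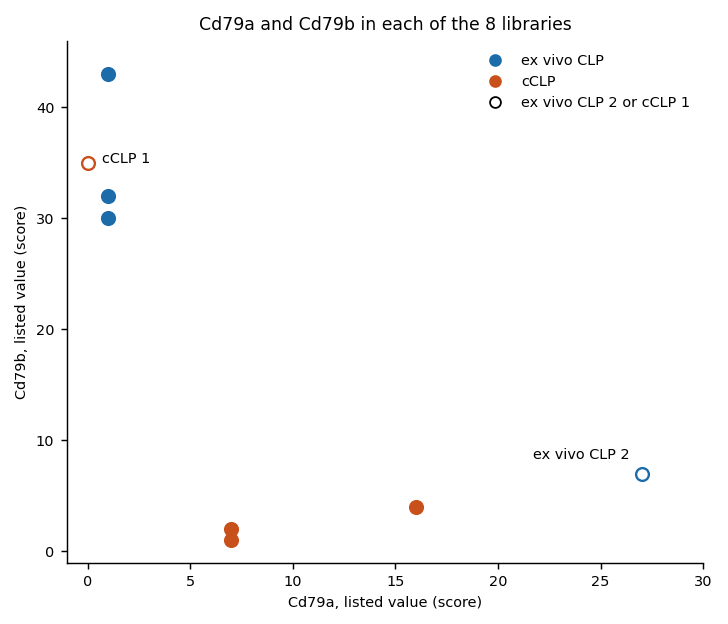
Listed value of Cd79b (vertical axis, score) against that of Cd79a (horizontal axis, score), 1 point per library, blue for ex vivo CLP and orange for cCLP. The open points are the libraries labelled ex vivo CLP 2 (Cd79a 27, Cd79b 7) and cCLP 1 (Cd79a 0, Cd79b 35), each lying beside the other group.

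The surrogate light chain genes were close to 0 everywhere. Vpreb1 (ENSMUSG00000059305) and Igll1 (ENSMUSG00000075370) lie side by side on chromosome 16, at 16868403 to 16870843 and 16860671 to 16863985. Vpreb1 had values of 1, 1 and 2 in the retained ex vivo libraries, of 1 in cCLP 1 and of 0 elsewhere. Vpreb3, which encodes a VpreB-related protein that binds heavy chains inside the cell, had 1 in all retained ex vivo libraries and in cCLP 1, and 0 elsewhere. Vpreb2 did not exceed 1, which it had for ex vivo CLP 1 and 4 and for cCLP 3 and 4. Igll1, which encodes lambda-5, reached 1 only in ex vivo CLP 3 and cCLP 4. No value of these 4 genes exceeded 2, so the filter on low values left them out, and steps of 1 or 2 on a rounded scale are all that separates their libraries. Vpreb1 and Vpreb2 are close copies: of 685 windows of 75 nt, the read length, in the Vpreb2 coding transcripts, 136 (19.9%) also occurred in Vpreb1. How reads shared by both copies were counted is not given in the sources used here, so their separate values are uncertain.

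Ighm, which encodes the constant region of the mu heavy chain that pairs with the surrogate light chain, was listed high in every library. A value per gene does not tell RNA of a rearranged heavy chain from other RNA of this gene. Listed values of Ighm were 769, 741 and 1109 in the retained ex vivo libraries and 938, 905 and 1476 in the retained cCLP libraries, with 1170 in ex vivo CLP 2 and 728 in cCLP 1. The groups overlapped, and the scaled means were 889 ± 80.7 (SD, n = 3) and 1033 ± 189 over the 6 libraries (log2 fold change 0.21 ± 0.16, adjusted p = 0.352). With all 8 libraries the log2 fold change of Ighm was -0.08 (adjusted p = 0.847), so its sign differed between the comparisons and neither passed the test. Igkc, the kappa light chain gene that B cells use once the surrogate chain is replaced, had 22 and 37 in ex vivo CLP 3 and 4, only 2 in ex vivo CLP 1 and cCLP 1, and 0 elsewhere.

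**Figure D2:**
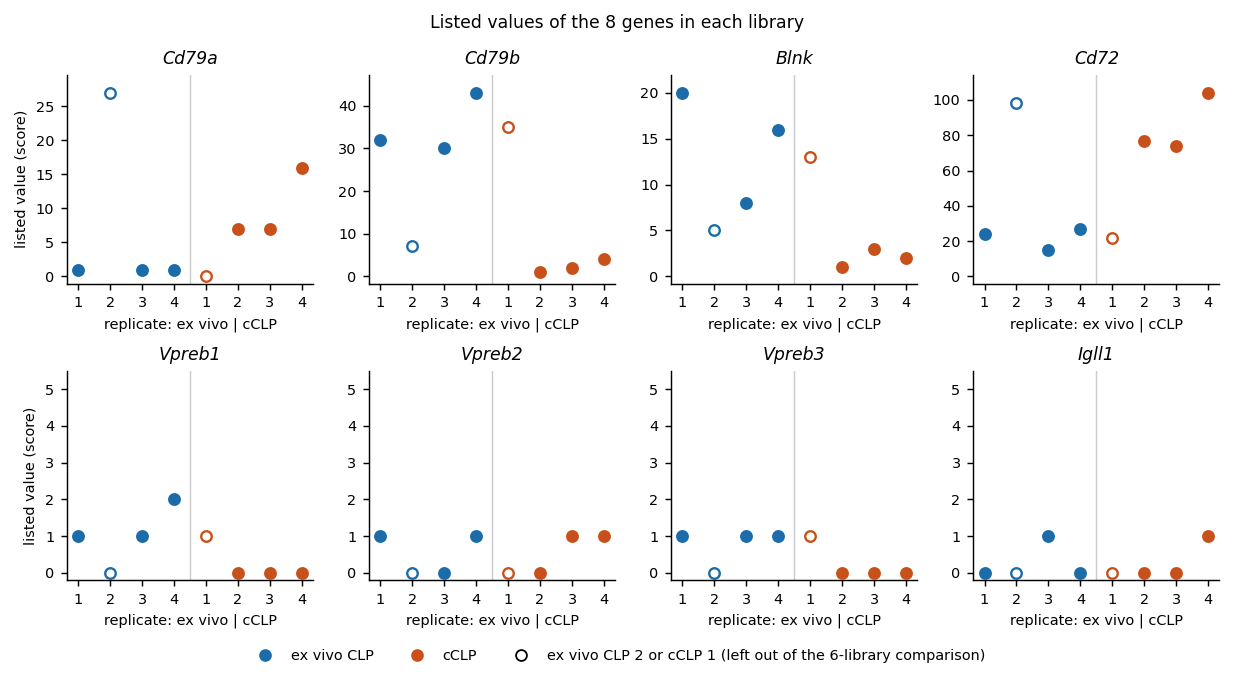
Listed value (vertical axis, score) of each of the 8 genes in each library, with ex vivo CLP replicates 1 to 4 left of the line and cCLP replicates 1 to 4 right of it. The open points, ex vivo CLP 2 and cCLP 1, lie nearer to the other group than to their own for Cd79a, Cd79b, Blnk and Cd72. Ex vivo CLP 2 lies outside the range of cCLP 2 to 4 for Cd79a (27), Cd79b (7) and Blnk (5). For Cd79a, cCLP 1 (0) lies just below ex vivo CLP 1, 3 and 4. Vpreb1, Vpreb2, Vpreb3 and Igll1 do not exceed 2.

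Blnk, the adaptor gene, was lower in the retained cCLP libraries. Blnk (ENSMUSG00000061132, chromosome 19, 40928927 to 40994535) was listed at 20, 8 and 16 in the retained ex vivo libraries and at 1, 3 and 2 in the retained cCLP libraries, with 5 in ex vivo CLP 2 and 13 in cCLP 1. In scaled values Blnk varied more among the retained ex vivo libraries than Cd79b did, but no value of the retained cCLP libraries reached the lowest of them. Over the 6 libraries Blnk fell: its scaled mean was 15.3 ± 7.74 (SD, n = 3) in the retained ex vivo and 1.87 ± 0.92 in the retained cCLP libraries, and limma gave a log2 fold change of -2.45 ± 0.35 (SE; 95% interval -3.26 to -1.65; adjusted p = 0.000974). With 5 in place of 1 added to scaled values the log2 fold change of Blnk was -1.51, still called. Like Cd79b, it passed the filter only through the ex vivo libraries, and in ex vivo CLP 3 it stood just inside the threshold of 10, at a scaled value of 10.2. Over the 8 libraries its log2 fold change was -1.59 ± 0.68 (adjusted p = 0.482).

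Cd72, the inhibitory coreceptor gene, was higher in the retained cCLP libraries and was the only gene of the 8 above a scaled value of 10 in every library. Cd72 (ENSMUSG00000028459, chromosome 4, 43446462 to 43454628) was listed at 24, 15 and 27 in the retained ex vivo libraries and at 77, 74 and 104 in the retained cCLP libraries. The library labelled ex vivo CLP 2 had 98 and the library labelled cCLP 1 had 22. Each of these 2 libraries fell inside or next to the range of the other group and far from its own. Over the 6 libraries Cd72 rose: its scaled mean was 22.5 ± 5.66 (SD, n = 3) in the retained ex vivo and 79.9 ± 8.40 in the retained cCLP libraries, and limma gave a log2 fold change of 1.81 ± 0.17 (SE; 95% interval 1.41 to 2.20; adjusted p = 0.000103). Over the 8 libraries the means were 44.3 ± 44.0 (SD, n = 4) and 65.2 ± 30.3 (log2 fold change 0.77 ± 0.65, adjusted p = 0.531).

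Read against all genes, the calls were as follows. Over the 8 libraries limma called 0 of the 3 tested genes (Cd79b, Blnk and Cd72), where 0% of 6580 genes were called, 510 genes had an unadjusted p below 0.05 and the fit without a variance trend also called 0. Of those 510 genes, Cd79b (unadjusted p = 0.038) and Blnk (0.0466) were members, and Cd72 was not (0.269). Over the 6 libraries 1 of the 3 tested rose (Cd72), where 20.7% of 6622 genes rose, and 2 fell (Cd79b and Blnk), where 22.4% fell. Cd79b and Blnk passed the filter only through the retained ex vivo libraries, so they could only fall. Without the filter on low values 2 of 8 rose (Cd79a and Cd72; 16.3% of 13755 genes rose) and 4 fell (Cd79b, Blnk, Vpreb1 and Vpreb3; 20.2% fell), but the calls for Vpreb1 and Vpreb3 rest on listed values of 1 or 2 against 0. Exact two-sided permutation tests of the level of each of the 8 genes over the 8 libraries gave p from 0.0857 (Cd79b) to 1, where 4 against 4 allow 0.0286.

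**Figure D3:**
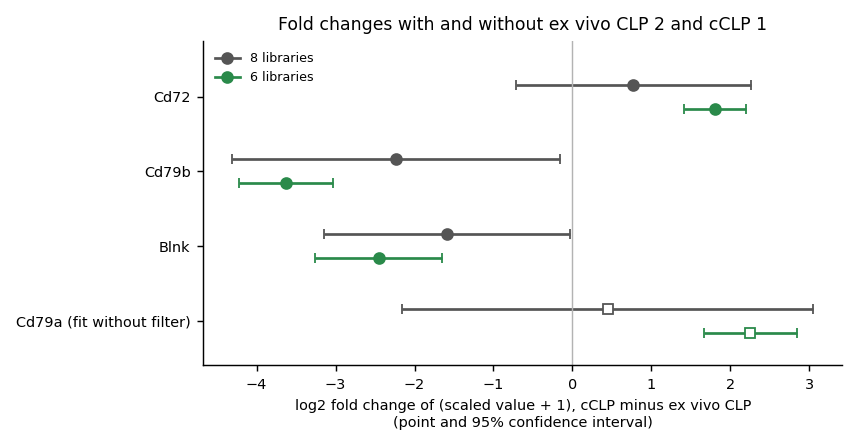
Log2 fold change of scaled value plus 1 (horizontal axis, cCLP minus ex vivo CLP) with 95% confidence intervals, grey for all 8 libraries and green without ex vivo CLP 2 and cCLP 1, and open squares for the fit without a filter. For Cd72, Cd79b and Blnk the interval over 8 libraries holds the value over 6 libraries and is wider (-0.72 to 2.26 against 1.41 to 2.20 for Cd72).

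The genes whose profile over the 8 libraries lay nearest to each tested member were found by the root mean square difference of mean-centred log2 values. Nearest to Cd79b were Cx3cr1 (0.408), H2-K1 (0.439) and Psrc1 (0.448), against a median of 1.71 over all genes tested. Nearest to Blnk were H2-T10 (0.435), Trim30a (0.480) and Abhd4 (0.481; median 1.20). Cd72 had closer neighbours, Serinc5 (0.150), Gm10384 (0.151) and Sdc1 (0.176; median 1.01), where Sdc1 encodes syndecan-1 and was listed at 45, 30 and 49 for the retained ex vivo libraries against 116, 139 and 168 in the retained cCLP libraries. These libraries share the split of the whole profiles, so likeness is a description only.

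Genes that act with the receptor were counted in 7 lists over the 6 libraries, and over the 8 libraries 0 were called in any list. Each count over the 6 libraries is to be read against all 6622 genes tested, of which 20.7% rose and 22.4% fell. Of 7 tested proximal kinase genes 4 rose (Fyn, Tec, Syk and Csk) and 1 fell (Lyn), beside 20.7% and 22.4% of all genes, with a median log2 fold change of 0.29 against -0.001 over all genes tested. Fyn, a Src family kinase gene, rose from a scaled 18.8 ± 2.08 (SD, n = 3) to 43.4 ± 1.99 (log2 fold change 1.17 ± 0.11, adjusted p = 8.99e-05), and Syk from 32.8 ± 3.07 to 44.6 ± 1.55 (0.44 ± 0.10, adjusted p = 0.00909). Lyn fell from 42.0 ± 4.77 to 30.4 ± 1.25 (-0.45 ± 0.11, adjusted p = 0.0113). Blk, the Src family kinase gene most tied to B cells, was too low to test and had 17, 6 and 10 in the retained ex vivo libraries, 11 in cCLP 1 and 0 elsewhere. Btk was at 27.4 ± 7.39 and 31.1 ± 7.41 (0.18 ± 0.23, adjusted p = 0.556).

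Of 13 tested adaptor and second messenger genes 6 rose (Bank1, Cd81, Lat2, Pik3ap1, Plcg2 and Pik3r1) and 3 fell (Lcp2, Dapp1 and Shc1), with a median of 0.21. The share that fell was near the 22.4% of all genes. Lcp2, which encodes SLP-76, the relative of BLNK used in T and myeloid cells, fell together with Blnk: its listed values were 10, 11 and 24 in the retained ex vivo libraries and 16 in cCLP 1, and it was at 0 elsewhere (adjusted p = 3.09e-06). Its fitted log2 fold change, -3.93, became -1.95 with 5 added to scaled values, and no fold is read from it. Lcp2 also passed the filter only through the ex vivo libraries. Bank1, a B cell scaffold gene, was listed at 3, 2 and 3 in the retained ex vivo libraries and at 15, 14 and 22 in the retained cCLP libraries (log2 fold change 2.17 ± 0.19, adjusted p = 7.32e-05; 1.43 with 5 added), with its direction fixed by the filter, here through the retained cCLP libraries. Plcg2, the phospholipase gene downstream of BLNK, rose from a scaled 92.6 ± 13.5 (SD, n = 3) to 140.7 ± 14.7 (log2 fold change 0.60 ± 0.13, adjusted p = 0.00828).

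Of 9 tested inhibitory receptor and phosphatase genes 4 rose (Dok3, Dok2, Inpp5d and Ptprc) and 1 fell (Pag1), beside 20.7% and 22.4% of all genes, with a median of 0.35. Dok3, an adaptor gene that dampens B cell receptor signals, rose from a scaled 13.9 ± 4.97 (SD, n = 3) to 68.5 ± 3.32 (log2 fold change 2.27 ± 0.21, adjusted p = 0.0001). Pag1, which encodes a membrane adaptor that holds the kinase Csk, fell from 13.2 ± 1.59 to 4.76 ± 0.562 (-1.30 ± 0.15, adjusted p = 0.00028), its direction fixed by the filter. Inpp5d, which encodes the lipid phosphatase SHIP-1, rose from 71.3 ± 3.29 to 134.7 ± 2.84 (0.91 ± 0.09, adjusted p = 0.000123). Ptpn6, which encodes the phosphatase that CD72 recruits, was at 125.3 ± 12.1 and 103.3 ± 2.74 (-0.27 ± 0.10, adjusted p = 0.066). Cd22, another inhibitory coreceptor gene of B cells, went the other way from Cd72 in its listed values, 2, 3 and 5 in the retained ex vivo libraries and 0 in the retained cCLP libraries, too low to test.

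Of 13 tested downstream genes 2 rose (Rasgrp3 and Stim1), 1 fell (Bcl10) and 10 were not called, with a median of -0.06. Both shares were below the 20.7% and 22.4% of all genes. Rasgrp3, a Ras activator gene of B cells, had 1 in every retained ex vivo library and in cCLP 1, against 32, 26 and 39 in the retained cCLP libraries and 37 in ex vivo CLP 2 (log2 fold change 3.93 ± 0.18, adjusted p = 2.26e-06; 2.54 with 5 added; direction fixed by the filter). Bcl10, which links the receptor to NF-kB, fell from a scaled 72.8 ± 20.4 (SD, n = 3) to 35.9 ± 1.41 (log2 fold change -0.96 ± 0.20, adjusted p = 0.00617).

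Among 11 tested regulators 2 rose (Ets1 and Mef2c) and 4 fell (Irf8, Erg, Spi1 and Runx1), with a median of -0.009. The share that rose was near the 20.7% of all genes, and 22.4% of all genes fell. Irf8 and Runx1 passed the filter only through the retained ex vivo libraries, so they could only fall. Irf8, a dendritic cell and B cell factor, had 118, 116 and 251 in the retained ex vivo libraries against 5, 7 and 5 in the retained cCLP libraries, with 153 in cCLP 1 and 3 in ex vivo CLP 2 (log2 fold change -4.63 ± 0.16, adjusted p = 7.97e-07; direction fixed by the filter). Ets1, a lymphoid factor gene, rose from a scaled 10.2 ± 4.81 (SD, n = 3) to 21.4 ± 1.18 (log2 fold change 1.08 ± 0.26, adjusted p = 0.011). Tcf3, which encodes the E2A proteins, was at 50.5 ± 8.18 (SD, n = 3) and 49.9 ± 5.53 (-0.009 ± 0.14, adjusted p = 0.966). The list of pre-B markers outside the receptor had 7 tested genes, with a median of 0.63. Of these 4 rose (Rag1, Rag2, Myb and Cd93) and 3 fell (Dntt, Spn and Cd24a), beside 20.7% and 22.4% of all genes. Rag1 and Dntt are also in the common lymphoid progenitor list, so these counts are not particular to pre-B cells. Rag1, which encodes a subunit of the V(D)J recombinase, rose from a scaled 3.72 ± 4.10 (SD, n = 3) to 296.6 ± 29.8 (log2 fold change 6.31 ± 0.51, adjusted p = 7.26e-05), passing the filter only through the retained cCLP libraries. Dntt, which encodes the polymerase that adds bases at the joints, fell from 1410 ± 749.6 to 150.7 ± 90.4 (-3.25 ± 0.47, adjusted p = 0.00125). The markers Il2ra, Lef1 and Cplx2 were listed at 0 in all 8 libraries, and Bst1 did not exceed 1.

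**Figure D4:**
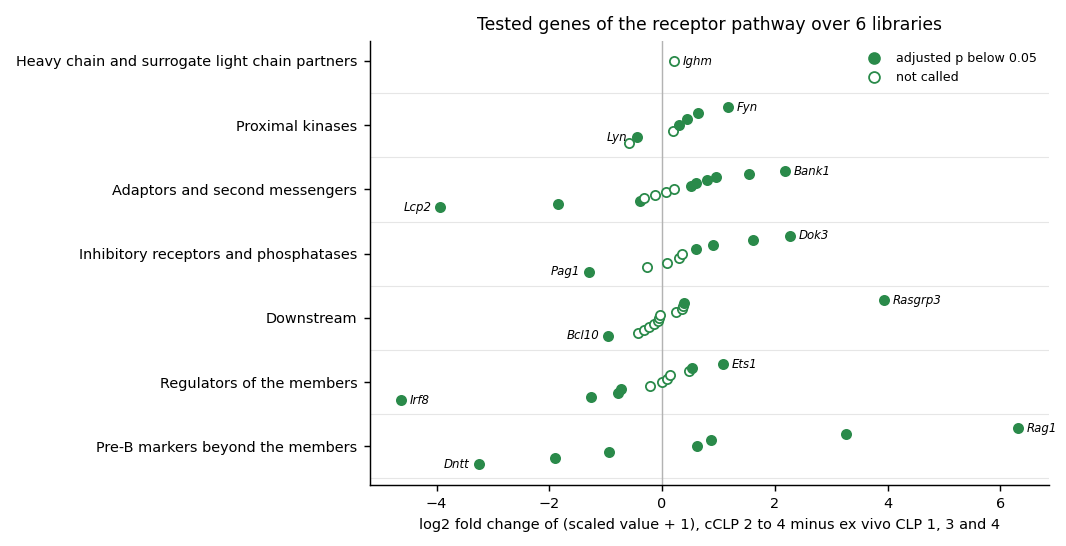
Log2 fold change over the 6 libraries (horizontal axis, cCLP 2 to 4 minus ex vivo CLP 1, 3 and 4) of each tested gene in the 7 lists, 1 row per list, with filled points for adjusted p below 0.05 and names for genes chosen by rule. Most tested downstream genes lie near 0, Rasgrp3 stands at 3.93, and Irf8 stands lowest at -4.63, with Lcp2, which was listed at 0 in cCLP 2 to 4, next to it.

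Summed markers of myeloid cells were lower where Cd79b and Blnk were lower. The 10 conventional dendritic cell or monocyte markers summed to scaled levels of 482 to 740 in the retained ex vivo libraries. In the retained cCLP libraries they summed to 31.9 to 65.0, with Xcr1 listed at 0 in all 8 libraries. The 9 neutrophil markers summed to 1197 to 2956 against 262 to 285. Mpo made up nearly all of the second range, at scaled values of 260, 271 and 284. The other neutrophil markers were listed at 0 or 1 in the retained cCLP libraries. Ccr2 did not fall with the remaining monocyte markers: its listed values, 11, 21 and 29 against 21, 54 and 30, overlapped. Without Ccr2 the sums were 469 to 714 against 9.57 to 13.4. Plasmacytoid dendritic cells, which are known to express Blnk and Cd79b, have 9 markers here, all above 0 in some library, and their sums overlapped, at 468 to 844 against 499 to 618. Single plasmacytoid markers split. Siglech had 39, 36 and 49 against 1, 4 and 3, and Bst2 had 110, 155 and 274 against 38, 51 and 44. Irf8, Ly6c2 and Spib were also lower in the retained cCLP libraries. Ccr9 went the other way, with 7, 5 and 6 against 224, 241 and 306. So did Cox6a2, with 68, 56 and 91 against 194, 329 and 278. Ccr9 and Cox6a2 were the largest parts of the second range of sums. Klk1 and Pacsin1 did not exceed 2. The 11 markers of B cell commitment beyond the receptor summed to 38.8 to 44.7 against 22.0 to 31.0, with Cr2 and Fcer2a at 0 in all 8 libraries and Ms4a1 at no more than 1. Ly6d carried this order: without it the sums turned round, to 8.89 to 10.9 against 21.0 to 30.2, with Bank1 and Ebf1 as the largest parts of the second range. The 5 mast cell or basophil markers summed to 26.6 to 113 against 0, and the 7 erythroid markers to 8.46 to 44.4 against 4.19 to 7.65. The 6 innate lymphoid markers went the other way, at 12.9 to 19.3 against 28.7 to 39.4. T cell markers were low, with sums of 3.81 to 6.04 against 0.84 to 1.06 and at most 6.65 in any library. Of 8 stromal markers 7, Col1a1 among them, were listed at 0 in all 8 libraries. The remaining one, Fn1, set sums of 0 to 0.72 against 5.87 to 11.7. The part of these cells in the differences of the receptor genes was not tested.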

How the data were processed

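Stranded total RNA libraries after Ribo-Zero depletion were made from 100 ng of RNA and sequenced as paired reads of 75 nt, per the labels' protocols. The submitters' processing notes name TopHat2, Bowtie2, HTSeq 1.0.6 and the GRCm38 (mm10) genome, without roles, strand setting or annotation release. The deposited values are a score without decimals for each Ensembl gene ID, whose scale is not given in the sources used here. For values from 5 to 50 its dispersion index (variance over that of counts) was 0.458 between ex vivo CLP 3 and 4 and 0.260 between cCLP 3 and 4, less spread than read counts allow, so no count model was used. The score summed to between 378594 and 704305 in a library, which is no depth.

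GENCODE vM21 gave symbols and positions (37607 of 39179 IDs matched). RefSeq (GRCm38.p6) gave promoter windows for 7 of the 8 genes, without Cd79b. Scores were divided by trimmed means of log ratios (30% of ratios, 5% of levels), computed over 8 libraries. Tests took genes that reached a scaled value of 10 in a number of libraries equal to the smaller group. On log2(scaled value + 1), linear models were fitted with limma 3.58.1 (R 4.3.3), with trended, robust empirical Bayes, two-sided tests and Benjamini-Hochberg adjustment over all genes tested, and called at adjusted p below 0.05. The script was tested on simulated data. Exact permutation tests used Python 3.11.15 and SciPy 1.17.1. The members, the lists and the choice of 6 libraries were made with earlier results of these data known. Named genes were all 8 members, Ighm, Ebf1 and Pax5, per list the gene that rose most and that which fell most among those called over 6 libraries, and the 3 nearest profiles of each tested member. Syk, Btk, Blk, Plcg2, Inpp5d, Ptpn6, Cd22, Igkc, Tcf3 and the markers given with values were chosen after their values were seen. Replicate numbers are not said to mark a shared animal or day, so the main fit has no block. Alternatives were other scalings, filters, a pseudocount of 5, plain empirical Bayes, a replicate block and each library left out. Marker sums without Ly6d and without Ccr2 were added after seeing the data.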

Additional observations from a re-analysis of the deposited data

Results flagged for a closer look

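In 48 groups of 4 libraries, 24 values stood far from the other 3 of their labelled group, of which 10 were in ex vivo CLP 2 and 12 in cCLP 1. Chance flags about 1 in 20 such groups, but that rate is no yardstick here: several of these genes were named for their change over the 6 libraries, which leaves these 2 libraries to stand apart, and a listed 1 against 0 in the other 3 always meets the rule. Scaled values are given, each with the nearest other library of the group where that helps.

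In ex vivo CLP 2, Cd79a stood at 30.3 (nearest other 1.27), Cd72 at 110.0 (29.0), Vpreb1 at 0 (1.21), Bank1 at 15.7 (3.63), Ebf1 at 8.98 (1.21), Pax5 at 2.24 (0), Fyn at 40.4 (20.6), Rag1 at 396.1 (8.46) and Rasgrp3 at 41.5 (1.27). The log2 ratio of Cd79b to Cd79a was -1.81 there, and the nearest other was 3.95.

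In cCLP 1, Cd79b stood at 33.2 (nearest other 3.35), Blnk at 12.3 (2.87), Vpreb1 at 0.95 (0), Vpreb3 at 0.95 (0), Bcl10 at 67.5 (37.2), Dntt at 1329 (254), Dok3 at 13.3 (66.2), Fyn at 19.0 (41.1), Irf8 at 145.3 (6.69), Lcp2 at 15.2 (0) and Pag1 at 11.4 (5.32). The log2 ratio of Cd79b to Cd79a was 5.17 there, and the nearest other was -1.42.

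The remaining values were those of Igll1, 1.27 in ex vivo CLP 3 and 0.838 in cCLP 4, each a listed value of 1 against 0 in the other 3 libraries.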

How the results depend on the processing

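Over the 8 libraries, 0 genes and 0 members were called under all 15 alternatives, and Cd79b, Blnk and Cd72 kept their direction in each alternative that tested them. The log2 fold change of Ighm over 8 libraries, -0.08, ranged from -0.22 to 0.065 with each library left out, the 0.065 being without ex vivo CLP 2, and was 0.064 without cCLP 1. Over the 6 libraries, Cd79b ranged from -3.90 to -2.53, Blnk from -2.69 to -1.51 and Cd72 from 1.64 to 2.00, and each was called under every alternative that tested it. Genes higher numbered 2238 without a filter and 882 with a filter at 20, and genes lower 2785 without a filter. Members higher numbered 2 and members lower 4 without a filter. Members lower numbered 1 under total scaling and 1 with a filter at 20, where Blnk was not tested. Leaving out each library gave 919 to 1530 genes higher and 1216 to 1825 lower, with 1 member higher and 2 lower each time. The difference in the log2 ratio of Cd79b to Cd79a over 8 libraries ranged from -4.39 (without cCLP 1) to -2.0 with each library left out, and was -4.16 without ex vivo CLP 2 and -1.69 with a pseudocount of 5.

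Deviations of same-numbered libraries correlated at 0.474, 0.770, -0.445 and -0.830 over 6121 genes, from group means that include the libraries lying with the other group, so the numbers are not shown to pair libraries. With the replicate block 0 genes were called over 8 libraries. Over the 4 of the 6 libraries that share a number, 1170 were higher and 1471 lower, with 1 member higher and 2 lower. The unknown depth limits what values of 0 to 2 can show for Vpreb1, Vpreb2, Vpreb3 and Igll1.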
